A study of Homo sapiens with 6 samples.

Results

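Replication-dependent histone genes were followed here, that is, the genes for the core histones H2A, H2B, H3 and H4 and for the linker histone H1. They were chosen by name: every probe set with a single gene symbol that starts with H1-, H2AC, H2BC, H3C or H4C and goes on with a number. This gave 63 of the 18417 genes measured: 11 of the H1 family, 14 of H2A, 17 of H2B, 8 of H3 and 13 of H4. Each had 1 such probe set. Of the 63 genes 60 are protein-coding, H2BC19P and H1-9P are pseudogenes, and H1-10-AS1 is an antisense RNA that meets the rule by its name only.

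The series measured RNA in A673 and SK-N-MC, a pair of established Ewing sarcoma cell lines, a tumour of bone and soft tissue. Cells were transfected with a non-silencing control, with an siRNA to DKK2, a secreted modulator of Wnt signalling, or with an siRNA to ITM2A, a membrane protein, as a separate knockdown. In both lines the DKK2 oligo was siDKK2 number 1. The ITM2A oligo was siITM2A number 7 in A673, while the sample of SK-N-MC is labelled siITM2A number 1 and the text on the design names number 7 alone. There was 1 array for each line and siRNA, 6 in all, each from 200 ng of total RNA, so no test within a line was possible. Each group therefore rests on 2 lines, and the labels name no repeat cultures. The p-values for an siRNA and those between lines rest on the same spread. It is how unevenly the A673 minus SK-N-MC difference varied over the 3 siRNAs, not a spread of repeat cultures. A shift that an siRNA gave in both lines alike does not add to it.

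Levels are log2 RMA values per probe set. A difference of 1 on this scale is a 2-fold difference, and levels of different probe sets cannot be set against each other. Signal over background was not measured here, so for values near or below the array medians the log2 difference is given without a fold. The array medians over all probe sets lay between 3.35 and 3.44. DKK2 read 8.64 with the control siRNA and 7.73 with siDKK2 in A673, and 8.01 and 6.50 in SK-N-MC. ITM2A read 8.52 with the control siRNA and 5.03 with siITM2A in A673, and 9.48 and 6.10 in SK-N-MC, so each target read lower in both lines with its own siRNA (limma adjusted p = 0.209 for DKK2 and 0.000442 for ITM2A). Of 9 Ewing sarcoma markers 8 lay above the array medians on every array, CD99 at 9.79 to 10.73 among them, while GLI1 lay at 2.68 to 3.35. Of 7 markers of blood, epithelial and endothelial cells 6 lay at 1.90 to 3.00 and CD68 at 4.06 to 6.41.

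Core histones form the nucleosome, around which DNA is wound, and H1 binds the DNA between nucleosomes. The genes of this group are copied many times, lie in clusters and are transcribed mainly while a cell replicates its DNA. Their mRNAs carry no poly(A) tail but end in a stem-loop bound by SLBP, and NPAT drives their transcription at nuclear bodies next to the clusters. Of the 63 genes 49 lie on chromosome 6, 8 on chromosome 1, 3 on chromosome 3, 2 on chromosome 12 and 1 on chromosome 17. Those of chromosome 6 form 3 blocks of 31, 5 and 13 neighbours, with gaps of over 500 kb between the blocks. H1-10 is a linker histone made outside S phase, and H1-1, H1-6, H1-7, H1-8, H2AC1 and H2BC1 are known mainly or in part from germ cells.

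Histone promoters carry short known elements, and 5 stretches are printed: those of the markers H3C1, H2BC14 and H2BC9, which were higher in A673, beside relatives that were not, H3C2 and H2BC7. The promoter of H3C11 is not shown here. RefSeq (GRCh38.p14) gave promoters for 55 of the 63 genes. Each line below is the 150 bases before the start of the gene, 5′ to 3′ on the strand of the gene. Capitals mark CCAAT boxes on either strand (CCAAT or ATTGG), the TATA box TATAAA, and the octamer ATTTGCAT, which is bound by the POU factor OCT1. The marked motifs do not overlap one another.
H3C1: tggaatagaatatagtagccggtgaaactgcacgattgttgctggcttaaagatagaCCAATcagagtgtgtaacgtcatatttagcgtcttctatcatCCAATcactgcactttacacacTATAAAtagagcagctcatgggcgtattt
H3C2: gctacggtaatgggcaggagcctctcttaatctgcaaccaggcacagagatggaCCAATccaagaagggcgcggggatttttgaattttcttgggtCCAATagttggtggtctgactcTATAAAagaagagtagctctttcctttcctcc
H2BC14: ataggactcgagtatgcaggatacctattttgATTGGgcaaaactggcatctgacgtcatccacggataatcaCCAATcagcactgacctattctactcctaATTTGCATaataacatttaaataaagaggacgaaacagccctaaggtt
H2BC7: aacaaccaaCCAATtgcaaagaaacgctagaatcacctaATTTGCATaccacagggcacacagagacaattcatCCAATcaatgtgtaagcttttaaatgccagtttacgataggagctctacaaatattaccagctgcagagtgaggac
H2BC9: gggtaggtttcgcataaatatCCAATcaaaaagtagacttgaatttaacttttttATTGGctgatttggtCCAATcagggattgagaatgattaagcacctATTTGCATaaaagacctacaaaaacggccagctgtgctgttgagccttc
The windows are chr6:26020301-26020450 (plus strand) for H3C1, chr6:26032100-26032249 (minus strand) for H3C2, chr6:27814872-27815021 (plus strand) for H2BC14, chr6:26199366-26199515 (plus strand) for H2BC7 and chr6:26251464-26251613 (plus strand) for H2BC9.

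The H3 pair H3C1 and H3C2 carried the same 3 marked elements in the same order. In H3C1 the CCAAT boxes began 93 and 51 bases before the start and TATAAA 29 bases before it. In H3C2 the same elements began 96, 54 and 32 bases before the start. Among the H2B genes the octamer began 48 bases before the start in H2BC14, 49 in H2BC9 and 111 in H2BC7. TATAAA was not found in the printed windows of these H2B genes.

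Over the 250 bases before the start, searched on both strands, the octamer was found in 23 of the 55 histone promoters (41.8%), against 1.63% of 35116 promoters of all genes. It was found in 13 of 16 H2B promoters (81.2%) and 10 of 13 H2A promoters (76.9%), and in 0 of 9 H1, 0 of 6 H3 and 0 of 11 H4 promoters. Many H2A and H2B genes start back to back, so 1 octamer can lie in the windows of both. CCAAT was found in 83.6% of the histone promoters (32% of all), but in only 3 of 11 of the H4 family. TATAAA was found in 63.6% of them (10.7% of all).

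Between the lines, most histone genes differed, and the largest differences were in favour of A673. Of the 63 genes 31 were higher and 14 lower in A673 past an adjusted p of 0.05 (limma fit over all genes with siRNA as a block), 45 in all. The same test called 28.5% of all genes tested, 13.8% higher and 14.7% lower. The 3 arrays of A673 lay above the 3 of SK-N-MC without overlap at 30 histone genes (18.1% of all genes) and below them at 17 (20.8% of all genes). At least 2-fold with each of the 3 siRNAs, 22 histone genes were higher in A673 (3.25% of all genes) and H2BC4 and H2BC5 were lower (1.97% of all genes). The median difference over the 63 genes was 0.26, against -0.02 over all genes, with genes on both sides of 0. In RNA from whole cultures, fewer cells in S phase and less histone RNA per cell cannot be told apart.

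The proteins of the H3 family carry many of the studied histone marks. Of its 8 genes 5 were higher in A673 and 0 lower, beside 13.8% and 14.7% of all genes. H3C11 read 10.97, 11.30 and 11.21 in A673 with control, siDKK2 and siITM2A, and 4.91, 4.77 and 4.24 in SK-N-MC. The lines were far apart with every siRNA, by 6.52 ± 0.16 (SE, 3 arrays a line, 91.7-fold, limma adjusted p = 1.97e-07). H3C1 read 6.54, 7.54 and 6.89 in A673 and stayed at 2.77, 3.04 and 2.91, below the array medians, in SK-N-MC (4.09 ± 0.15, limma adjusted p = 5.94e-07). H3C8 differed by 3.55 ± 0.10 and H3C7 by 3.42 ± 0.15 (10.7-fold), again without overlap. H3C3 was higher in A673 by 0.52 ± 0.10, the smallest called difference of the family, and lay near the array medians in SK-N-MC. H3C2 did not pass: it read 8.75, 9.78 and 9.21 in A673 and 9.80, 9.61 and 9.71 in SK-N-MC. The 2 ranges overlapped. H3C10 (0.17 ± 0.12) and H3C12 (-0.17 ± 0.16) overlapped as well.

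The H4 family split in both directions, with 6 of 13 genes higher in A673 and 4 lower (13.8% and 14.7% of all genes). H4C3 read 8.77, 9.11 and 8.90 in A673 and 5.25, 5.56 and 5.86 in SK-N-MC (3.37 ± 0.13, 10.3-fold). H4C4 read 7.12, 7.47 and 7.28 in A673 and 4.40, 4.95 and 4.75 in SK-N-MC (2.59 ± 0.11, 6.03-fold). Both lay higher in A673 on every array. H4C8 went the other way, at 4.80, 5.31 and 4.82 in A673 and 6.06, 5.81 and 6.10 in SK-N-MC, 2.02-fold lower in A673. H4C2 was 1.58-fold lower in A673. H4C14 and H4C15 each read 7.45, 7.72 and 7.11 in A673 and 8.66, 8.44 and 8.63 in SK-N-MC. These neighbours on chromosome 1 had equal values on all 6 arrays, so they count as 2 genes here but give 1 measurement. It was 2.21-fold lower in A673, while a probe set shared by both differed between the lines by only -0.06 on average. Most H4 genes are known to encode the same protein.

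Of the 14 H2A genes 8 were higher in A673 and 4 lower, beside 13.8% and 14.7% of all genes. H2AC4 read 7.65, 8.07 and 7.61 in A673 and 5.33, 5.12 and 4.65 in SK-N-MC (2.74 ± 0.15, 6.7-fold). H2AC8 read 4.83, 5.37 and 5.16 in A673, while in SK-N-MC it lay below the array medians at 2.52, 2.52 and 2.54 (2.59 ± 0.13). H2AC11 (2.32 ± 0.12) and H2AC13 (1.90 ± 0.22) were higher in A673 too. The genes lower in A673 included H2AC6, at 7.14, 7.41 and 7.14 against 8.15, 8.20 and 8.04 in SK-N-MC (-0.90 ± 0.11). H2AC20 and H2AC21, neighbours on chromosome 1, were 1.82-fold and 1.5-fold lower in A673. The last of the 4, H2AC25, was 1.44-fold lower and is named here after its value was seen.

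H2B had 9 of 17 genes higher in A673 and 4 lower, beside 13.8% and 14.7% of all genes. It held the extremes on both sides among the core histones other than H3. H2BC14 read 9.98, 10.34 and 9.77 in A673 and 4.87, 5.05 and 4.11 in SK-N-MC. That is 5.36 ± 0.13, or 41-fold (limma adjusted p = 1.97e-07), next in size to H3C11. H2BC12 read 6.32, 5.72 and 4.66 in A673 and 1.53, 2.19 and 1.85 in SK-N-MC, the latter below the array medians (3.71 ± 0.30). H2BC9 read 8.32, 9.24 and 8.99 in A673 and 6.11, 6.61 and 6.93 in SK-N-MC (2.30 ± 0.13, 4.93-fold), high on the arrays of both lines. H2BC8 (2.51 ± 0.12) and H2BC13 (1.27 ± 0.11) were also higher in A673. H2BC5 read 6.25, 6.63 and 6.61 in A673 and 7.57, 7.71 and 7.88 in SK-N-MC, 2.33-fold lower in A673. H2BC4, at 4.46, 5.19 and 4.92 against 6.14, 6.24 and 6.26, was 2.55-fold lower, and H2BC7, at 7.11, 7.46 and 7.25 against 8.44, 8.29 and 8.49, was 2.2-fold lower. The pseudogene H2BC19P was lower in A673 (-0.54 ± 0.11) at levels of 1.83 to 2.84, below the array medians.

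Of the 11 linker histone genes 3 were higher in A673 and 2 lower, beside 13.8% and 14.7% of all genes. H1-5 read 9.96, 10.45 and 10.27 in A673 and 6.66, 6.06 and 6.10 in SK-N-MC (3.95 ± 0.19, 15.5-fold). H1-3 read 6.82, 7.16 and 6.68 in A673 and 3.32, 4.92 and 4.71 in SK-N-MC, where the control array stood below the others (2.57 ± 0.25). H1-1 differed by 2.88 ± 0.28 and was above the array medians on all A673 arrays, at 5.95 to 6.82. The common somatic linker histones H1-4 and H1-2 were lower in A673, by 1.61-fold and 1.79-fold, at high levels in both lines. H1-4 read 10.56 with control and 10.85 with siITM2A in A673, against 11.57 and 11.42 in SK-N-MC, and the lines did not overlap. H1-10 differed by 0.03 ± 0.12 and did not pass the test. Of the other germ cell genes, H1-6, H1-7, H1-8, H2AC1 and H2BC1 did not pass it either.

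**Figure D1:**
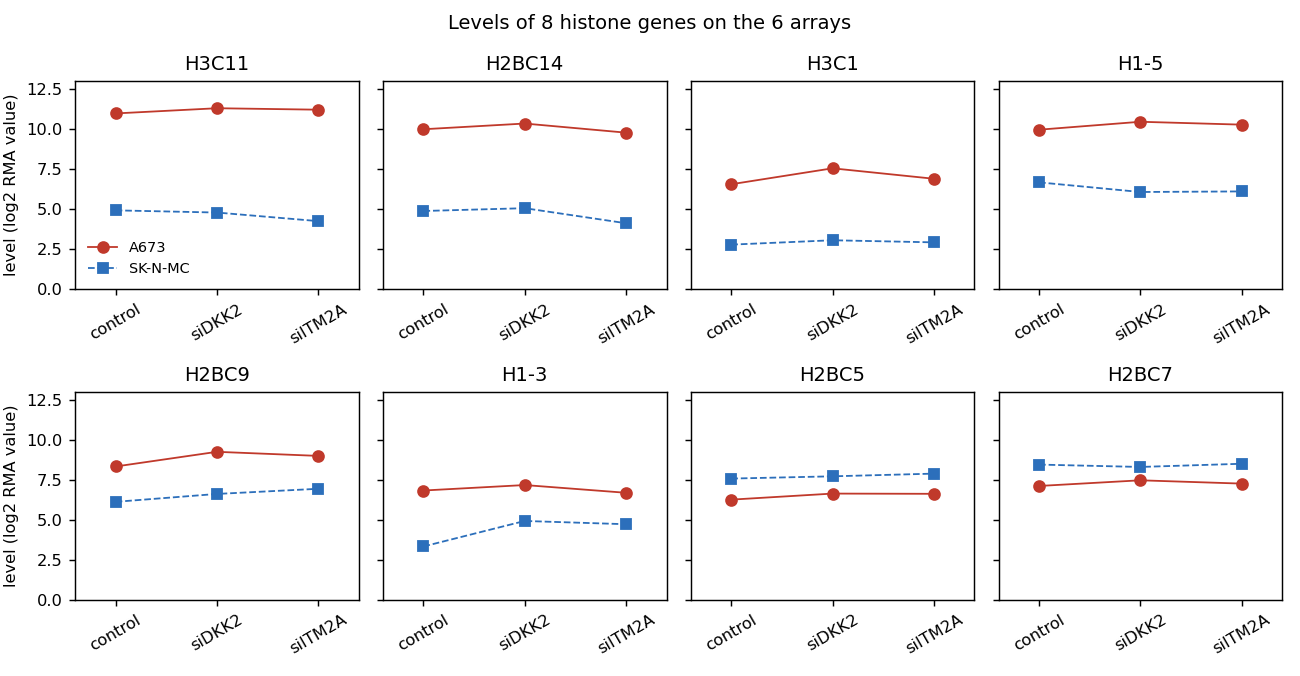
Level (log2 RMA value) of 8 histone genes with the control siRNA, siDKK2 and siITM2A, 1 array per point, A673 as red circles and SK-N-MC as blue squares. H3C11, H2BC14, H3C1, H1-5, H2BC9 and H1-3 lie higher in A673 on every array and H2BC5 and H2BC7 lie lower; lines join the arrays of a cell line and are no time course.

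The called genes were also counted by position, as a description. All 5 genes of the second block of chromosome 6 were called higher in A673 (median difference 2.32), and 10 of 13 in the third block (median 1.42) with 0 called lower. In the second block H4C9, named after its values were seen, lay below the array medians on all arrays. H2AC12, H2BC11 and H2BC12 of that block lay below them on all SK-N-MC arrays. The first block was mixed, with 16 of 31 higher and 8 lower (median 0.52), and H3C1 and H2BC4 lie in it. On chromosome 1, 0 of 8 were higher and 6 lower (median -0.57). Among these 6 are H4C14 and H4C15, which give 1 measurement, and the pseudogene H2BC19P, which lay below the array medians. Of all genes 13.8% were called higher and 14.7% lower. No test of position was made.

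**Figure D2:**
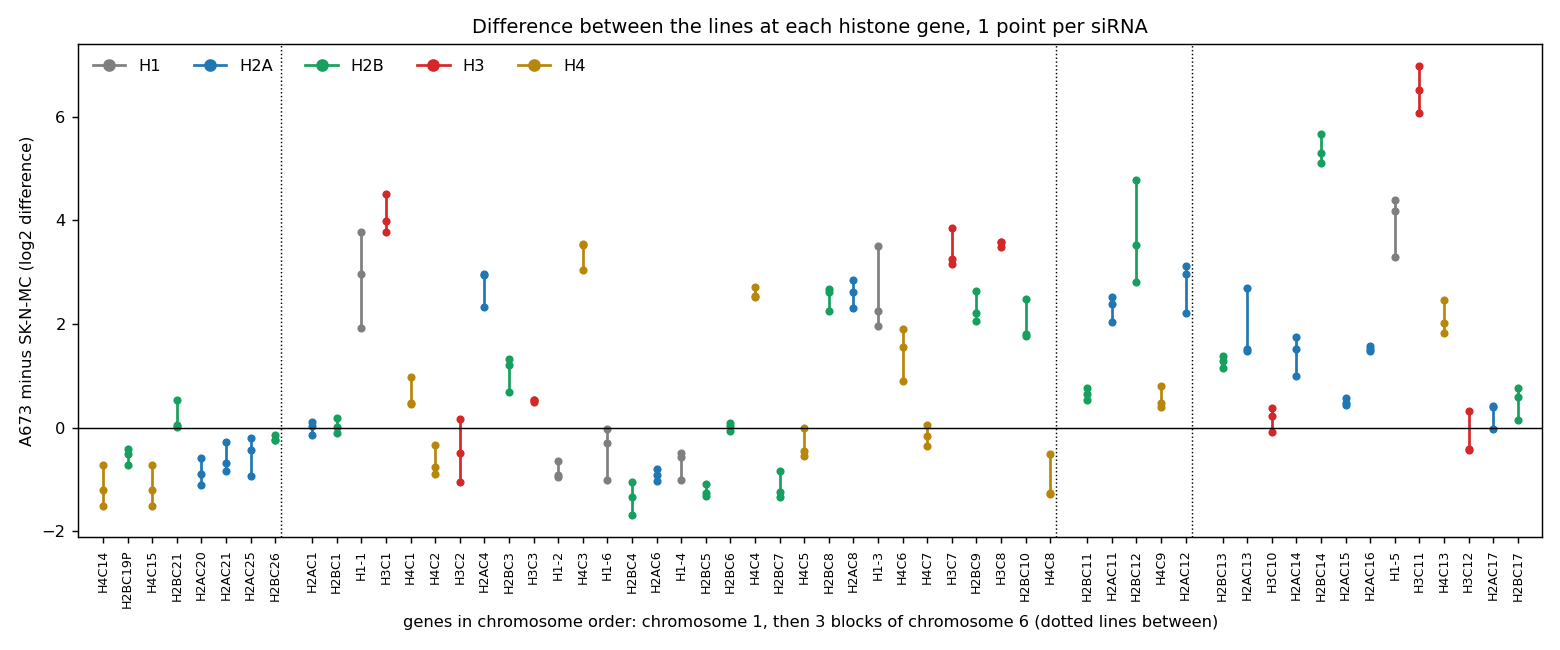
A673 minus SK-N-MC (log2 difference) at each histone gene of chromosomes 1 and 6 in chromosome order, with 1 point per siRNA joined by a line and colours for the families. Blocks 2 and 3 of chromosome 6 lie mostly above 0, the genes of chromosome 1 mostly below 0, and the first block holds both.

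Some histone genes lay above the middle of the arrays in 1 line and below it in the other. Above the array median on all A673 arrays and below it on all SK-N-MC arrays were 8 genes: H3C1, H2AC8, H2AC12, H2BC3, H2BC10, H2BC11, H2BC12 and H4C6 (1.47% of all genes tested). The reverse held for 0 of the 63 (1.13% of all genes). A further 35 of the 63 were above the array median on all arrays (9721 of all 18417 genes) and 7 below it on all (6595 of all 18417). H2AC12, H2BC3, H2BC10 and H4C6 are named here after their values were seen.

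Genes that start back to back did not always go together. Among 10 divergent pairs with starts at most 1000 bases apart, H2BC8 and H2AC8, 233 bases apart, differed between the lines by 2.51 and 2.59. H2BC4 and H2AC6, 246 bases apart, were both lower in A673, by -1.35 and -0.90. In the pair H2AC14 and H2BC14, 245 bases apart, the differences were 1.42 and 5.36, and in H2BC21 and H2AC20, 236 bases apart, they were 0.20 and -0.86. H2AC14 was dim, at 3.00, 3.38 and 3.20 in A673, near or below the array medians. In SK-N-MC it lay below them, at 1.48, 1.63 and 2.21. H2AC14 and H2BC21 are named only as partners. H3C7 and H2BC9, 979 bases apart, were both higher in A673, by 3.42 and 2.30. So some pairs had like differences and others did not.

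The octamer was common among genes of either direction. It was in 8 of 9 promoters of the H2B genes higher in A673, 2 of 3 of those lower and 3 of 4 of the others. For H2A the counts were 5 of 7, 3 of 4 and 2 of 2. H2BC14 and H2BC7, printed above, both carry it and lie on opposite sides.

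With siDKK2, histone genes were mostly higher than with the control siRNA in A673 and evenly split in SK-N-MC, but no histone gene passed the test. In limma 0 of 63 had an adjusted p under 0.05 (0.0109% of all genes), and 8 had an unadjusted p under 0.05 (8.68% of all genes). In A673 53 of 63 were higher with siDKK2 (42.8% of all genes), with a median difference of 0.33 against -0.04 over all genes. In SK-N-MC 32 of 63 were higher (48.6% of all genes), with a median of 0.00 against -0.01. In both lines 27 were higher (23.2% of all genes) and 5 lower (31.6% of all genes). The difference in A673 exceeded that in SK-N-MC at 49 of the 63 (45.9% of all genes). With 1 array per line and siRNA that difference between the lines was not tested, and the A673 values all rest on 1 control array and 1 siDKK2 array.

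The pattern in A673 was shared by the 5 families. The genes higher with siDKK2 there were 6 of 8 of H3, 12 of 13 of H4, 13 of 14 of H2A, 13 of 17 of H2B and 9 of 11 of H1, with medians of 0.36, 0.28, 0.34, 0.33 and 0.26. In SK-N-MC the counts were 2 of 8, 4 of 13, 9 of 14, 12 of 17 and 5 of 11, with medians of -0.16, -0.15, 0.03, 0.10 and -0.02. H3 and H4 were thus mostly lower and H2B mostly higher in SK-N-MC. At least 1.5-fold, 7 genes were higher and 1 lower in A673 (1.55% and 3.48% of all genes), 3 higher and 1 lower in SK-N-MC (1.06% and 1.84% of all genes), and 0 in both lines in either direction (0.0597% of all genes higher and 0.418% lower). In opposite directions by that much in the lines was H2BC12 alone (0.0814% of all genes), at -0.59 and 0.66.

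**Figure D3:**
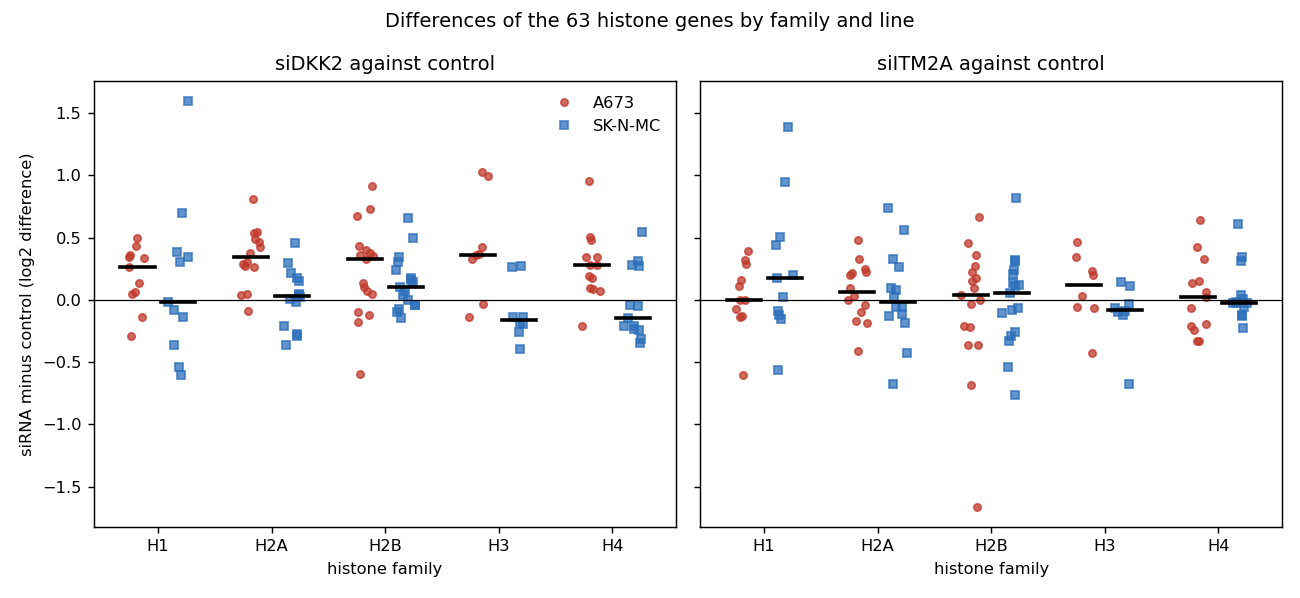
Difference from the control siRNA (log2) of the 63 histone genes by family, for siDKK2 and for siITM2A, with A673 as red circles, SK-N-MC as blue squares and black bars at the medians. With siDKK2 the medians of A673 lie at 0.26 to 0.36 and those of SK-N-MC at -0.16 to 0.10.

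Single genes show the spread. H2BC9 was higher in both lines, in A673 by 0.92 (8.32 to 9.24) and in SK-N-MC by 0.49 (6.11 to 6.61), and its fit of 0.71 ± 0.16 had a limma adjusted p of 0.307. H3C1 differed in A673 by 1.00 (6.54 to 7.54) and in SK-N-MC by 0.27 (2.77 to 3.04, below the array medians), with a fit of 0.64 ± 0.18 (limma adjusted p = 0.406). These values lean the same way in both lines, yet neither passed. H1-3 differed in A673 by 0.34 and in SK-N-MC by 1.60 (3.32 to 4.92), H2AC15 by 0.54 and 0.45, H4C4 by 0.34 and 0.55 and H4C3 by 0.35 and 0.31. Their limma adjusted p-values lay at 0.353 (H2AC15), 0.417 (H4C4), 0.45 (H1-3) and 0.61 (H4C3). Without the A673 control array H1-3 had a difference of 1.67. SK-N-MC then gave the only control array, on which H1-3 read 3.32, below the array median. H2BC14 differed by 0.36 and 0.17, and H3C11 by 0.33 and -0.14.

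Several genes had a difference in A673 with little or none, or the opposite, in SK-N-MC. H3C2 read 8.75 with the control siRNA and 9.78 with siDKK2 in A673, a difference of 1.03, and differed by -0.19 in SK-N-MC. H2AC13 differed by 0.81 and -0.36, and H2BC4 by 0.73 and 0.10. H1-5 differed in A673 by 0.50 and in SK-N-MC by -0.60. H4C6 (0.96 and -0.05) and H2BC10 (0.68 and -0.04), named after their values were seen, were alike in this. Lower in both lines were H4C16 (-0.21 and -0.32), H1-7 (-0.14 and -0.36), H3C3 (-0.14 and -0.14), H2BC26 (-0.09 and -0.10) and H3C10 (-0.04 and -0.19), all by less than 1.5-fold. H4C16 and H2BC26 lay below the array medians on all arrays.

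With siITM2A the histone genes showed no common direction. In limma 0 of 63 passed (0.0109% of all genes), and 10 had an unadjusted p under 0.05 (6.91% of all genes). In A673 37 of 63 were higher than with the control siRNA (42.8% of all genes) and in SK-N-MC 30 (47.6% of all genes), with medians of 0.03 and -0.02. In both lines 20 were higher (21.2% of all genes) and 16 lower (30.7% of all genes). The 2 knockdowns share the control arrays, so their values are set side by side here and not counted as separate evidence.

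H2BC9 was the 1 histone gene at least 1.5-fold higher in both lines with siITM2A (0.0869% of all genes). It differed in A673 by 0.66 and in SK-N-MC by 0.82 (0.74 ± 0.16, limma adjusted p = 0.623), against 0.92 and 0.49 with siDKK2, so its control arrays were the lowest of their line. H2BC13 was lower in both lines, by -0.68 and -0.54 (-0.61 ± 0.13, limma adjusted p = 0.623). H2BC14 differed by -0.21 and -0.77 and H2BC5 by 0.36 and 0.31, while H3C1 differed by 0.34 and 0.14 and H3C11 by 0.23 and -0.67. H1-3 differed in A673 by -0.14 and in SK-N-MC by 1.39, where its control value was the low one with both siRNAs. H2BC12 differed in A673 by -1.66 (6.32 to 4.66) and in SK-N-MC by 0.32, the widest gap from the control in A673 among the 63.

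Set directly against siITM2A, siDKK2 gave higher values in A673 at 53 of 63 histone genes (49.4% of all genes; median 0.22 against -0.00) and in SK-N-MC at 27 (50.3% of all genes; median -0.05). This shares the siDKK2 arrays with the comparison above. In limma 0 of 63 passed (0.0163% of all genes), and 8 had an unadjusted p under 0.05 (8.32% of all genes). H2AC15 was the 1 gene at least 1.5-fold higher in both lines (0.136% of all genes), by 0.72 and 0.59 (0.65 ± 0.13, limma adjusted p = 0.283). H2BC14 differed by 0.57 and 0.94 (0.76 ± 0.16, limma adjusted p = 0.283) and H2BC13 by 0.73 and 0.50 (limma adjusted p = 0.284). H2AC4, H2BC8 and H3C8 were higher with siDKK2 in both lines as well, by 0.47 and 0.47, 0.34 and 0.40, and 0.32 and 0.33. By 1.5-fold or more in opposite directions was H1-1 alone (0.0977% of all genes), at 0.87 and -0.99. In SK-N-MC, then, values with siDKK2 were not generally above those with siITM2A.

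Genes that make, process and use histone mRNA were read from lists. Of 19 measured genes of histone transcription and 3′ processing, 3 were higher in A673 than in SK-N-MC and 2 lower (limma adjusted p under 0.05), near the 13.8% and 14.7% of all genes. Of these 5, ERI1, the exonuclease that trims histone mRNA ends, read 5.76, 5.40 and 5.64 in A673 and 4.62, 4.17 and 4.17 in SK-N-MC (1.28 ± 0.11). NPAT, the activator at histone genes, was higher by 0.69 ± 0.12 and CPSF3, the cleavage enzyme, by 0.56 ± 0.11. SLBP, the stem-loop binding protein, was lower in A673 by -0.45 ± 0.10 and NCBP2, of the cap-binding complex, by -0.46 ± 0.11. Each of these was smaller than the differences of H3C11 and H2BC14, the largest among the histone genes. That of ERI1 was about the size of the one at H2BC13 (1.27 ± 0.11). Their part in the histone differences was not tested. With siDKK2 0 of the 19 passed, 7 were higher in each line, and the medians were -0.07 and -0.06. MIF4GD, a partner of SLBP in histone mRNA translation, differed by -0.69 and -0.77 with siDKK2 (limma adjusted p = 0.22). It read 3.94 with control and 3.25 with siDKK2 in A673, and 3.77 and 3.00 in SK-N-MC. Both siDKK2 values lay below the array medians.

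Of 9 measured replacement histones, which are made throughout the cycle, MACROH2A2 (1.36 ± 0.10) and H2AX (0.79 ± 0.12) were higher in A673 and H2AZ2 (-0.56 ± 0.11) lower, 3 of 9 beside 28.5% of all genes. With siDKK2 0 of them passed, and the medians were -0.04 and 0.01. Of 24 histone chaperones 2 were higher in A673 and 4 lower, together near the 28.5% of all genes called. With siDKK2 15 of 24 chaperones (A673) and 7 of 24 (SK-N-MC) were higher, with 0 past the threshold. The acetyltransferase HAT1 differed by -0.49 with siDKK2 in the fit (limma adjusted p = 0.403).

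Markers of cycling cells were read because histone mRNA is tied to S phase. Between the lines, 2 of 27 G1/S and S phase genes were higher in A673 and 9 lower, beside 13.8% and 14.7% of all genes. The replication factor GINS2 (1.39 ± 0.12) was higher in A673, and the cyclins CCNE2 (3.89-fold) and CCNE1 (limma adjusted p = 0.000433) were lower. Of 19 genes of G2 and mitosis 2 were higher and 2 lower, together below the 28.5% of all genes. With siDKK2, 21 (A673) and 7 (SK-N-MC) of the 27 S phase genes were higher than control, with medians of 0.16 and -0.17 and 0 past the threshold. Of the 19 genes of G2 and mitosis 14 (A673) and 2 (SK-N-MC) were higher, with medians of 0.09 and -0.17. The difference in A673 exceeded that in SK-N-MC for 26 of the 27 and 19 of the 19 (45.9% of all genes), as for 49 of the 63 histone genes. With siITM2A 12 (A673) and 1 (SK-N-MC) of the S phase genes were higher than control. The difference in A673 then exceeded that in SK-N-MC for 22 of the 27 and 15 of the 19 (47% of all genes). For the histone genes this held for only 29 of the 63. The part of these genes in the histone values was not tested.

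**Figure D4:**
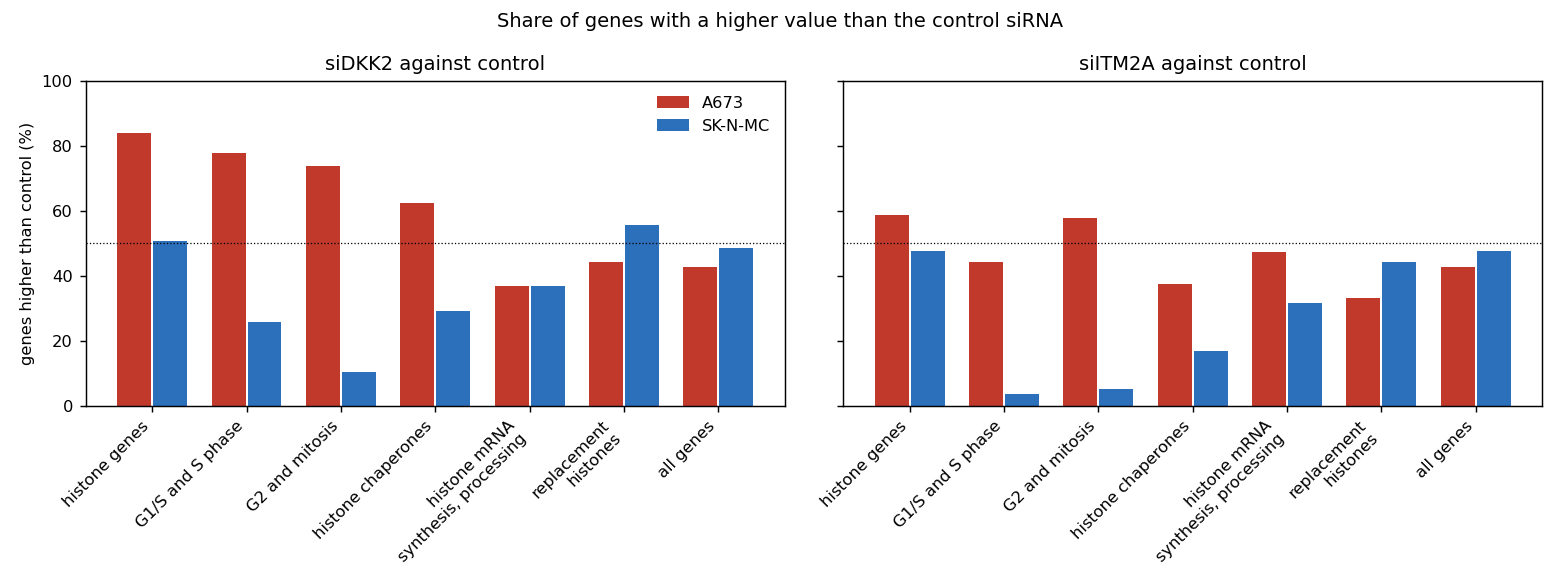
Share of genes (%) with a higher value than the control siRNA in A673 (red) and SK-N-MC (blue), for the 63 histone genes, 5 lists of related genes and all 18417 genes, with siDKK2 and with siITM2A; the dotted line is at 50%. With siDKK2 84.1% of the histone genes are higher in A673 and 50.8% in SK-N-MC.

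Histone genes are near-copies of one another in their coding parts, so a probe set of 1 symbol may also read its relatives. A further 16 probe sets carry several symbols that all meet the rule. They were left unnamed, and 6 of them form 3 pairs with equal values. A shared probe set of H4C15 and H4C14 differed with siDKK2 in A673 by 1.08 and in SK-N-MC by 0.40, against 0.28 and -0.21 on the single-symbol ones. Between the lines the shared one differed by -0.06 on average and the single-symbol ones by -1.15. The values of these 2 genes are therefore uncertain, and other relatives were not compared in this way.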

How the data were processed

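RNA levels were measured on 6 Affymetrix whole-transcript arrays. The deposited values, which run from 1.02 to 13.4, are taken as log2; no label states the scale. Per the submitters' processing notes they were made with Affymetrix Expression Console and RMA, with version, settings and build not given in the sources used here. RMA compresses differences of dim probe sets. The number of arrays limits the precision.

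Of 33297 probe sets 19460 had 1 symbol, 1754 several and 12083 none or no entry in the platform table; 19429 were matched by Entrez number to the current gene table. The highest probe set by mean was kept for 769 genes with several, which left 18417 genes. limma 3.58.1 (R 4.3.3; lmFit and eBayes) was fitted on all 6 arrays with siRNA and line as terms, and tested on simulated data. Adjusted p-values (Benjamini-Hochberg, over the 18417 genes) were held to 0.05. The line pairs the arrays across siRNAs, per the labels. Deviations of arrays of 1 line from their siRNA means correlated at 0.849 to 0.872. Each mean has 1 array per line, so this reflects the line difference and does not test whether cultures were paired.

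The members and lists were chosen with earlier results of these data known. Genes were named by a rule: 4 markers (H3C1, H3C11, H2BC14 and H2BC9), those past the threshold or, above 12 in a direction, the 12 with the largest smallest difference, the 6 highest and 6 lowest per comparison in 1 direction throughout, the 3 highest and 1 lowest level per family, and the germ cell and replication-independent genes. List genes were named up to 4 per list and comparison. Lists of cell cycle inhibitors and interferon genes were read too. Alternatives were the block, an intensity trend, a filter on dim genes, averaging of probe sets, centring, the 4 arrays compared only, each array left out, other member sets and a 2-fold minimum. Promoters are from RefSeq; 10 pairs of starts within 1000 bases on opposite strands were taken as divergent.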

Additional observations from a re-analysis of the deposited data

Results flagged for a closer look

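A pair of histone genes had values at least 1.5-fold apart in opposite directions in the lines, with 1 array per line and siRNA, so the difference between the lines was not tested. H2BC12 differed with siDKK2 against control in A673 by -0.59 and in SK-N-MC by 0.66, where it read 1.53 and 2.19, below the array medians (0.0814% of all genes differed in this way). H1-1, a linker histone known from germ cells, differed between siDKK2 and siITM2A in A673 by 0.87 (6.82 and 5.95) and in SK-N-MC by -0.99 (3.05 and 4.04; 0.0977% of all genes).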

How the results depend on the processing

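The count of histone genes past the threshold stayed at 0 in every siRNA comparison and alternative that kept 2 arrays in each group. Without the A673 control array SK-N-MC gave the only control array. H1-3 then differed by 1.67 with siDKK2, against a control value of 3.32, below the array median. The fit without the line as a block gave 0 for siDKK2 against control too, with the same median of 0.17. This is no check: with 1 array per line and siRNA the median cannot change. The line differences also enter the spread of that fit. Between the lines 33 of the 40 brighter genes passed, 57 of 79 with the shared probe sets added, and 41 to 45 with arrays left out. The median between the lines (0.26) was 0.17 with the shared probe sets added, 0.22 with arrays centred, 0.27 to 0.40 with arrays left out, 0.51 without the germ cell and replication-independent genes, and, by alternatives chosen after seeing the data, 0.50 over protein-coding genes and 0.38 with H4C14 and H4C15 as 1. The median with siITM2A was -0.053 to 0.088 with arrays left out, and the median with siDKK2 0.026 to 0.32. Some single genes changed sign with 1 array left out, none of them past the threshold. H3C11 with siDKK2 ranged from -0.25 (A673 control array left out) to 0.44, with siITM2A from -0.56 to 0.12 (control or siITM2A array of SK-N-MC left out), and between these siRNAs from -0.024 (siITM2A array of SK-N-MC left out) to 0.65. H3C10 with siDKK2 ranged from -0.27 to 0.040 (siDKK2 array of SK-N-MC left out). H2AC13 with siITM2A ranged from -0.068 (siITM2A array of SK-N-MC left out; -0.040 without the A673 control array) to 0.55. H2BC9 between the siRNAs ranged from -0.28 to 0.22 (siDKK2 array of SK-N-MC left out; 0.15 without its siITM2A array). H2BC19P (-0.46, limma adjusted p = 0.058) and H4C2 (-0.55, limma adjusted p = 0.056) no longer passed between the lines without either siITM2A array. At 2-fold, 0 genes were left in place of H2BC9 and H2AC15. The cause of these changes was not tested.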

Other observations

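Of the 10 measured cell cycle inhibitors, BTG3, an antiproliferative gene, fell with siITM2A by 1.82 ± 0.13 on the log2 scale (limma adjusted p = 0.0049), from 7.09 to 5.31 in A673 and from 6.49 to 4.63 in SK-N-MC. With siDKK2 it read 6.19 and 5.75 (limma adjusted p = 0.213). The medians of these inhibitors with siDKK2 lay at -0.14 (A673) and -0.08 (SK-N-MC). The 14 measured interferon response genes had medians of -3.23 (A673) and -1.17 (SK-N-MC) with siDKK2, on the same arrays on which 53 and 32 of the 63 histone genes were higher than control. Of the 14, 0 had a limma adjusted p under 0.05 with siDKK2 (0.0109% of all genes). With siITM2A, set against the same control arrays, the medians of these 14 were -0.84 (A673) and -0.32 (SK-N-MC). Their part in the histone values was not tested.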
